A study of Mus musculus with 21 samples.

Results

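The RNA polymerase I machinery was examined here as 10 genes, chosen by symbol from the 20900 genes of the deposited table: the subunit genes Polr1a, Polr1b, Polr1c, Polr1d and Polr1e, and the factor genes Ubtf, Rrn3, Taf1b, Taf1c and Ttf1. All 10 passed the filter on low values. The cells were E14 embryonic stem cells, a mouse line of the 129 strain grown in serum with leukaemia inhibitory factor (LIF). Poly(A) RNA was sequenced from cells before treatment (0 h control) and after 2, 4 and 8 h in medium with an inhibitor of this enzyme, either BMH-21 or CX-5461, each at 1 µM. Each of the 7 groups had 3 libraries, 21 in all. The 0 h control served both inhibitors. Treated cells received fresh medium with the inhibitor, no control was kept in medium without it for the same hours, and time in culture and treatment cannot be told apart. The question was whether inhibiting the enzyme was accompanied by altered mRNA levels of its own subunits and factors.

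RNA polymerase I transcribes the repeated ribosomal DNA in the nucleolus into the precursor of the large ribosomal RNAs, and it is highly active in embryonic stem cells. Ubtf (UBF) coats and bends active ribosomal DNA, and SL1, a complex of TBP with Taf1a, Taf1b, Taf1c and Taf1d, marks the promoter. Rrn3 (TIF-IA) then brings an initiation-competent polymerase to SL1, and Ttf1 binds the terminator elements where transcription stops. BMH-21 is known as a DNA intercalator that leads to loss of the POLR1A protein, and CX-5461 as a compound that blocks initiation by the enzyme. The libraries measured mRNA and say nothing of these proteins.

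Values are log2 of reads plus an offset of 0.5, scaled to library size by the authors. Each library was then centred on its median over the 14666 genes tested (centred median 4.37), so a change is a change relative to the median gene. A gene was said to have risen or fallen where limma gave a Benjamini-Hochberg adjusted p below 0.05 over all genes tested. Libraries held 46604397 to 62812641 reads, and the member with fewest reads, Taf1b, still had 1463 or more in every library. Nothing in the labels says that replicates were separate cultures, so p-values measure the spread between these libraries. In bulk RNA, fewer cells of a type and less RNA per cell cannot be told apart. The 8 embryonic stem cell markers were all present. Their level, summed on the deposited scale without centring, was 5770 to 6580 CPM in the controls. It was 2840 to 3010 CPM after 8 h of BMH-21 (8 of 8 fell after centring) and 5320 to 5710 CPM after 8 h of CX-5461 (6 fell and 1 rose, likewise). Such sums hold the shifts that centring takes off at 8 h, -0.21 log2 for BMH-21 and 0.22 for CX-5461 against control. The other marker lists were summed in the same way. Of 6 fibroblast markers, 2 passed the filter. All 6 summed to 9.16 to 11.5 CPM in the controls and to 31.1 to 37.9 and 22.4 to 24.6 CPM at those times. Most of this was Col1a1 (370 to 2551 reads), and at 8 h 1 of the 2 tested rose with each inhibitor. The 5 trophoblast markers summed to 77.4 to 84.2, 114 to 138 and 118 to 139 CPM, mostly Tfap2c (2255 to 8959 reads). Of the 4 tested, 3 rose and 1 fell at 8 h of BMH-21, and 4 rose at 8 h of CX-5461. The 5 endoderm markers summed to 8.77 to 11, 7.66 to 9.3 and 12.1 to 12.4 CPM, and the 3 mesoderm markers to 1.95 to 3.02, 4.47 to 5.11 and 3.59 to 4.22 CPM. No marker was at 0 reads in every library. The part of these markers in the results was not tested.

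The sequence before the start is shown for Polr1a, Polr1b and Polr1e, subunit genes of 1 enzyme whose mRNAs moved in different directions. The runs are from RefSeq promoter windows of build GRCm38.p6, on the + strand and read 5′ to 3′, and end before the annotated gene start. Capitals mark the GC box GGGCGG, the only one of the motifs searched that occurs in them.
Polr1b, chr2:129100746-129100994: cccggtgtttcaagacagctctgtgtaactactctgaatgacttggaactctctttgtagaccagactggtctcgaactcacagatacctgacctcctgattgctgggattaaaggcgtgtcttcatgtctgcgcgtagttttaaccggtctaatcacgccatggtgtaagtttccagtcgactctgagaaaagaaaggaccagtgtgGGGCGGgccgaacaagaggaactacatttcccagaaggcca
Polr1a, chr6:71908803-71909052: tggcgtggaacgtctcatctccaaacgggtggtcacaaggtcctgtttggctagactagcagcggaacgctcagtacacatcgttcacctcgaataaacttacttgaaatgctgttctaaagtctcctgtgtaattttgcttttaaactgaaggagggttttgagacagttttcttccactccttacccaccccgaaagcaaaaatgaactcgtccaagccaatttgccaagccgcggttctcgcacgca
Polr1e, chr4:45018359-45018582: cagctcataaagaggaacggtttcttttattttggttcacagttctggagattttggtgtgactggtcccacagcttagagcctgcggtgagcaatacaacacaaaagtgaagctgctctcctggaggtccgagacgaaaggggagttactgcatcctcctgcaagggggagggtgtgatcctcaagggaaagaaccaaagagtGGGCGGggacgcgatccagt
The GC box stood once before Polr1b, which fell, and once before Polr1e, which rose under BMH-21, and was not found before Polr1a. GC content was 49.4% before Polr1b, 47.6% before Polr1a and 51.8% before Polr1e, beside a median of 52.4% over 32851 windows of 250 bases. The 10 members matched 16 windows. On either strand, GGGCGG was in a window of 5 of the 10 members, beside 32.7% of all windows. The ETS core CCGGAAG was in those of 3 (Polr1c, Taf1c and Ttf1), beside 6.9%, and the E-box CACGTG in that of Rrn3 alone, beside 6.0%. No other motif overlaps the GC box in these runs. Members with several windows had more chances to match than the single windows beside them.

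Per kilobase of annotated exon, the controls ordered the members as follows. Polr1c stood highest (log2 6.28 ± 0.03 per kilobase, SD, n = 3), then Rrn3 (6.10 ± 0.03), Ubtf (6.05 ± 0.06) and Polr1d (6.02 ± 0.07). Polr1b was at 5.34 ± 0.05, Ttf1 at 4.72 ± 0.10 and Polr1a at 4.52 ± 0.06. Polr1e (3.84 ± 0.06), Taf1b (3.71 ± 0.08) and Taf1c (3.69 ± 0.03) were lowest. Rrn3, Ubtf and Polr1d lay within their spread of each other, as did Taf1b and Taf1c. The SD covers the libraries alone. Lengths are of all annotated exons of a gene, and the annotation used for counting is not given, so the order is uncertain to that extent.

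**Figure D1:**
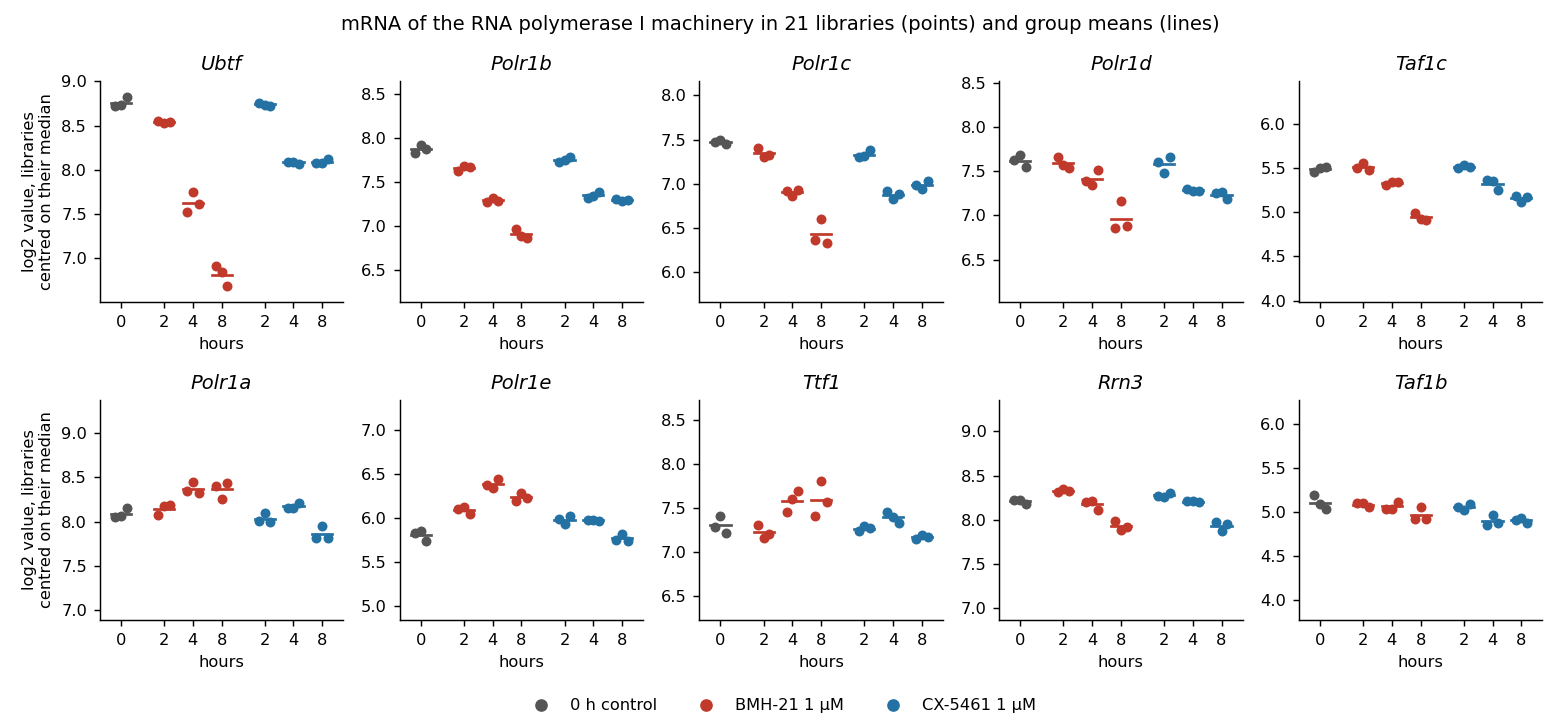
Level of each member (log2 value of libraries centred on their median, y axis; every panel spans 2.5 log2 units) by hours of treatment (x axis). Points are libraries and lines are means of 3; Ubtf descends under BMH-21 to between 6.69 and 6.91, and Polr1e stands above all controls in each BMH-21 group.

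Ubtf (ENSMUSG00000020923, chr11:102304560-102319742 in GRCm38), the architectural factor of active ribosomal DNA, showed the largest change of the 10 genes. The controls stood at log2 values of 8.72, 8.73 and 8.82. BMH-21 libraries stood at 8.55, 8.53 and 8.55 at 2 h, at 7.52, 7.75 and 7.62 at 4 h, and at 6.91, 6.84 and 6.69 at 8 h. CX-5461 libraries stood at 8.76, 8.73 and 8.72 at 2 h, at 8.09, 8.09 and 8.07 at 4 h, and at 8.08, 8.08 and 8.12 at 8 h. Every BMH-21 group lay wholly below the controls and below the group before it, whereas CX-5461 overlapped the controls at 2 h and lay below them at 4 and 8 h. The log2 difference from control was -0.21 (SE 0.05, adjusted p 0.0015, limma) after 2 h of BMH-21, -1.13 after 4 h and -1.95 (95% interval -2.05 to -1.84, adjusted p 1.3e-20) after 8 h, which left 25.9% of the control level. CX-5461 left 62.7% at 4 h and 63.0% at 8 h (log2 difference -0.67, adjusted p 3.2e-11), and at 2 h the difference was -0.02 (adjusted p 0.81). These falls passed with the same sign under all 4 scalings of the libraries, from -1.60 to -2.16 for BMH-21 at 8 h and from -0.25 to -0.67 for CX-5461 at 8 h. Ranked among the tested genes at 8 h, 1.55% had a lower difference than Ubtf with BMH-21, and 6.06% with CX-5461.

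Polr1b (ENSMUSG00000027395, chr2:129100995-129126594), the second largest subunit, which forms the active centre together with Polr1a, fell in all 6 comparisons with control. Its controls were at 7.83, 7.92 and 7.87. BMH-21 took it to 7.62, 7.68 and 7.67 at 2 h, 7.27, 7.32 and 7.29 at 4 h and 6.97, 6.88 and 6.87 at 8 h. CX-5461 took it to 7.72, 7.74 and 7.78, then 7.33, 7.34 and 7.39, then 7.31, 7.28 and 7.29. No treated library reached the lowest control. The log2 difference at 8 h was -0.97 (SE 0.04, adjusted p 8.1e-18) with BMH-21, or 51.2% of control, and -0.58 (adjusted p 6.0e-13) with CX-5461, or 67.0%. The small fall after 2 h of CX-5461 (-0.12, adjusted p 0.0085) passed with neither median-ratio factors nor quantile normalization, nor without control replicate 2 (-0.10).

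Polr1a (ENSMUSG00000049553, chr6:71909053-71984935), the largest and catalytic subunit, did not follow it. The controls were at 8.05, 8.07 and 8.15, BMH-21 libraries at 8.34, 8.45 and 8.32 at 4 h and at 8.40, 8.25 and 8.44 at 8 h, and CX-5461 libraries at 7.82, 7.95 and 7.82 at 8 h. Polr1a was thus above every control at 4 and 8 h of BMH-21 and below every control at 8 h of CX-5461. It rose by 0.28 on the log2 scale after 4 h of BMH-21 (adjusted p 2.4e-05) and by 0.28 after 8 h (SE 0.05, adjusted p 2.2e-05), relative to the median gene. As deposited, these differences were 0.13 (adjusted p 0.27) and 0.06 (adjusted p 0.58), whereas at 8 h median-ratio factors gave 0.45 (adjusted p 2.7e-08) and quantile normalization 0.71 (adjusted p 8.1e-12). With CX-5461 the 8 h difference was -0.23 (adjusted p 2.6e-04), but -0.01 (adjusted p 0.93) as deposited, -0.11 (adjusted p 0.054) with median-ratio factors and 0.10 (adjusted p 0.080) after quantile normalization, where the sign turned. At 2 h with either inhibitor and at 4 h with CX-5461 the differences were 0.06, -0.06 and 0.09 and did not pass. The last of these passed as a rise with median-ratio factors (0.19, adjusted p 0.0024) and quantile normalization (0.28, adjusted p 4.9e-05). Exons of Polr1a overlap those of the antisense gene Gm26628, and whether the counting used strand is not given in the sources used here, so its value is uncertain to that extent.

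Polr1c (ENSMUSG00000067148, chr17:46243920-46248054) and Polr1d (ENSMUSG00000029642, chr5:147077050-147111597) encode the pair of assembly subunits that RNA polymerase I shares with RNA polymerase III. Polr1c was at 7.47, 7.50 and 7.45 in the controls, at 6.92, 6.86 and 6.93 after 4 h of BMH-21 and at 6.37, 6.61 and 6.33 after 8 h. With CX-5461 it was at 6.92, 6.83 and 6.89 at 4 h and at 6.98, 6.95 and 7.03 at 8 h. All of these libraries lay below the controls. The log2 difference was -1.04 (SE 0.05, adjusted p 4.3e-15) after 8 h of BMH-21, or 48.7% of control, and -0.49 (adjusted p 1.2e-08) after 8 h of CX-5461, or 71.3%. After 2 h it was -0.13 with BMH-21 (adjusted p 0.056) and -0.14 with CX-5461 (adjusted p 0.037), the latter lost in 4 of the 6 fits that left out a library, with median-ratio factors (-0.10, adjusted p 0.12) and after quantile normalization (-0.10, adjusted p 0.18).

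The Polr1d differences from control at 4 and 8 h were smaller than those of its partner. Its controls, at 7.62, 7.69 and 7.55, overlapped both inhibitors at 2 h. After 8 h it was at 6.85, 7.16 and 6.88 with BMH-21 and at 7.25, 7.26 and 7.19 with CX-5461. The log2 differences were -0.20 at 4 h (adjusted p 0.0069) and -0.66 at 8 h (SE 0.06, adjusted p 1.5e-09) with BMH-21. With CX-5461 they were -0.33 at 4 h and -0.39 at 8 h (adjusted p 1.0e-05). The former passed under all 4 scalings, but only just after quantile normalization (-0.145, adjusted p 0.05 after rounding). The latter did not pass on the deposited scale (-0.17, adjusted p 0.18) or after quantile normalization (-0.08). After quantile normalization the BMH-21 fall at 4 h (-0.10, adjusted p 0.17) did not pass either.

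Polr1e (ENSMUSG00000028318, chr4:45018583-45036565), known as PAF53, forms with Cd3eap (Polr1g) a heterodimer that belongs to RNA polymerase I alone and helps it initiate and elongate. After centring it had the largest rise of the 10 genes (after quantile normalization that was the 0.71 of Polr1a). Controls were at 5.83, 5.85 and 5.74. BMH-21 libraries were at 6.10, 6.12 and 6.04 at 2 h, 6.37, 6.34 and 6.44 at 4 h and 6.19, 6.28 and 6.23 at 8 h, all above the controls. CX-5461 libraries were at 5.98, 5.93 and 6.02 at 2 h and 5.97, 5.98 and 5.96 at 4 h, also above them, and at 5.75, 5.82 and 5.74 at 8 h, among them. The log2 difference with BMH-21 was 0.28 at 2 h, 0.58 at 4 h (SE 0.04, adjusted p 6.5e-12; 149% of control) and 0.43 at 8 h (adjusted p 9.8e-10). Of these the 4 h rise passed under all 4 scalings (0.43 to 0.64), while on the deposited scale the differences at 2 and 8 h were 0.21 (adjusted p 0.19) and 0.22 (adjusted p 0.060). With CX-5461 it was 0.17 at both 2 and 4 h (adjusted p 0.0018 and 8.3e-04), and 0.03 (adjusted p 0.86) and 0.01 (adjusted p 0.95) on the deposited scale. At 4 h of CX-5461 median-ratio factors and quantile normalization each gave about 0.27 (adjusted p 1.9e-06 and 2.9e-06), and at 8 h quantile normalization gave 0.12 (adjusted p 0.013).

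Of the 2 SL1 genes among the members, Taf1c had the larger differences at 8 h. Taf1c (ENSMUSG00000031832, chr8:119597871-119605222) was at 5.45, 5.50 and 5.52 in the controls, at 4.99, 4.92 and 4.92 after 8 h of BMH-21 and at 5.18, 5.12 and 5.18 after 8 h of CX-5461. Both 8 h groups lay below every control, at log2 differences of -0.54 (SE 0.04, adjusted p 7.8e-12) and -0.33 (adjusted p 1.1e-07). At 4 h the differences were -0.16 with each inhibitor (adjusted p 0.0011 and 7.5e-04), and the CX-5461 falls were -0.06 (adjusted p 0.18, 4 h, median-ratio factors), -0.08 (adjusted p 0.092, 4 h, quantile) and -0.11 (adjusted p 0.41, 8 h, deposited scale) where they did not pass. Exons of Taf1c overlap those of Dnaaf1 on the opposite strand, which makes its value uncertain in the same way as that of Polr1a.

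Taf1b (ENSMUSG00000059669, chr12:24498359-24558539), the SL1 subunit that resembles the general factor TFIIB, stayed between 4.86 and 5.19 in all 21 libraries. The fall of 0.20 after 4 and 8 h of CX-5461 (adjusted p 7.0e-04 and 7.8e-04) was small and was lost with median-ratio factors. On the deposited scale the sign of the 8 h difference turned (0.02 above control, adjusted p 0.92). The fall of 0.14 after 8 h of BMH-21 (adjusted p 0.011) had overlapping groups, and its sign turned with median-ratio factors (0.04). It did not pass without control replicate 1 (-0.09) or BMH-21 8 h replicate 3 (-0.11).

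Rrn3 (ENSMUSG00000022682, chr16:13780708-13814839), the growth-regulated initiation factor, was at 8.22, 8.22 and 8.18 in the controls. It was at 8.31, 8.35 and 8.32 after 2 h of BMH-21, above every control, and at 7.99, 7.89 and 7.92 after 8 h, below every control. After 8 h of CX-5461 it was at 7.98, 7.88 and 7.96, also below every control. The differences were 0.12 (adjusted p 0.010), -0.27 (SE 0.04, adjusted p 1.9e-07) and -0.27 (adjusted p 3.7e-07), and at 4 h they were -0.03 with BMH-21 and 0.00 with CX-5461, the latter passing as a rise with median-ratio factors (0.10, adjusted p 0.011) and quantile normalization (0.21, adjusted p 3.8e-05). These calls depended on the scaling, since after quantile normalization the 8 h differences were 0.14 (adjusted p 0.0017) and 0.08 (adjusted p 0.053), and on the deposited scale the 2 h difference was 0.04 (adjusted p 0.83) and the CX-5461 difference at 8 h -0.06 (adjusted p 0.68).

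Ttf1 (ENSMUSG00000026803, chr2:29060262-29087656), the terminator-binding factor, was the most scattered member. The controls were at 7.29, 7.41 and 7.22, and BMH-21 libraries at 7.45, 7.61 and 7.70 at 4 h and at 7.41, 7.81 and 7.57 at 8 h, where they overlapped the controls. It rose by 0.28 (SE 0.07, adjusted p 0.0014) and 0.29 (adjusted p 8.1e-04) at these times, which on the deposited scale were 0.13 (adjusted p 0.28) and 0.08 (adjusted p 0.50). At 8 h they were 0.46 (adjusted p 1.9e-06) with median-ratio factors and 0.63 (adjusted p 3.9e-08) after quantile normalization. No CX-5461 difference from control passed (-0.04, 0.09 and -0.13), although the 4 h value did with median-ratio factors (0.19, adjusted p 0.018) and quantile normalization (0.27, adjusted p 0.0025).

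**Figure D2:**
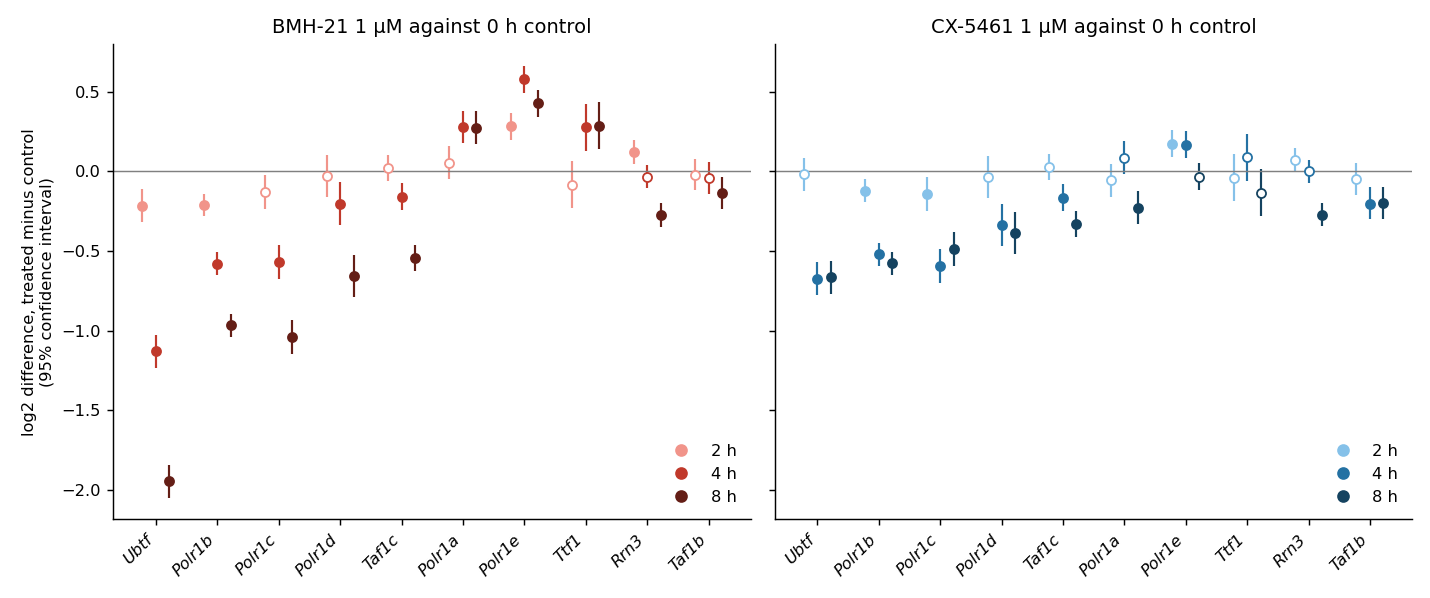
Log2 difference of each member from the 0 h control (y axis) after 2, 4 and 8 h, for BMH-21 (left) and CX-5461 (right); bars are 95% confidence intervals and filled points passed the test. Ubtf, Polr1b and Polr1c lie below 0 at 4 and 8 h of both inhibitors, and Polr1e above 0 at 2, 4 and 8 h of BMH-21.

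Counted together, the members split in both directions under BMH-21. At 2 h of BMH-21, 2 rose and 2 fell, beside 18.6% and 17.5% of all genes tested. At 4 h, 3 rose and 5 fell, beside 32.2% and 41.5%. At 8 h, 3 rose and 7 fell, beside 33.3% and 51.3%. For CX-5461 the counts were 1 up and 2 down at 2 h (background 15.8% and 17.8%), 1 up and 6 down at 4 h (28.5% and 45.7%), and 0 up and 8 down at 8 h (29.3% and 44.7%). The counts were near these backgrounds in most comparisons and are no result about these genes alone. The count furthest above its background, 8 falls at 8 h of CX-5461, was 3 on the deposited scale, where 2091 of the 14666 genes tested fell. The median difference of the members at 8 h was -0.41 with BMH-21 and -0.30 with CX-5461, beside -0.19 and -0.11 over all genes tested. The 6 comparisons share the control libraries.

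The split between rises and falls depended on the scaling. On the deposited scale the members that rose and fell were 0 and 2, 1 and 5, and 0 and 7 with BMH-21 at 2, 4 and 8 h, and 0 and 2, 0 and 6, and 0 and 3 with CX-5461. Over the 14666 genes tested these counts were 1243 and 1648, 3234 and 6592, and 3599 and 8349 with BMH-21. For CX-5461 they were 1093 and 3003, 2899 and 7504, and 5154 and 2091. With median-ratio factors the members were 2 and 2, 3 and 5, and 3 and 6 with BMH-21, and 2 and 0, 4 and 4, and 0 and 6 with CX-5461. All genes gave 2941 and 2311, 5185 and 5483, and 5975 and 6126, and 2800 and 1844, 4999 and 5172, and 5320 and 4972. Quantile normalization gave 2 and 2, 3 and 4, and 4 and 5 members with BMH-21, and 1 and 0, 4 and 5, and 1 and 5 with CX-5461. All genes gave 2363 and 2509, 4580 and 6231, and 4962 and 7419, and 2203 and 2185, 4233 and 6444, and 4277 and 5821. Over all genes the share of calls that were lower at 8 h was 60.6% with BMH-21 and 60.4% with CX-5461 after centring, 69.9% and 28.9% as deposited, and 50.6% and 48.3% with median-ratio factors. Centring took a shift of -0.21 off every BMH-21 difference at 8 h and of 0.22 off every CX-5461 one. The falls of Ubtf, Polr1b and Polr1c at 4 and 8 h of both inhibitors passed under all 4 scalings, as did those of Ubtf and Polr1b at 2 h of BMH-21, Taf1c at 4 and 8 h and Polr1d at 8 h of BMH-21, Polr1d at 4 h of CX-5461, and 1 rise, that of Polr1e at 4 h of BMH-21. The fall of Polr1d at 4 h of CX-5461 passed only just after quantile normalization (adjusted p 0.05 after rounding).

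**Figure D3:**
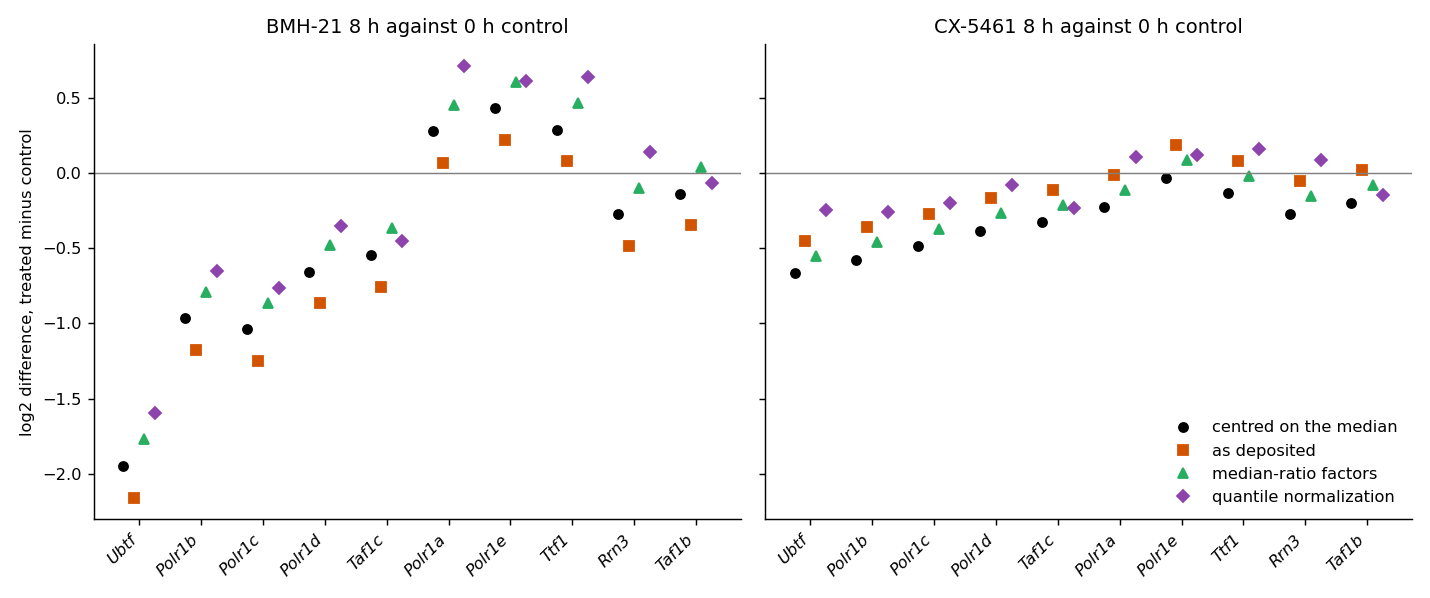
Log2 difference of each member from control at 8 h (y axis) under 4 scalings of the libraries, for BMH-21 (left) and CX-5461 (right); each symbol is 1 scaling. Ubtf, Polr1b and Polr1c stay below 0 under each, whereas Rrn3 after BMH-21 spans -0.49 to 0.14.

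A difference between members within a library does not depend on a factor that scales the whole library. Polr1b minus Polr1a was -0.22 ± 0.07 (SD, n = 3) in the controls and -0.49 ± 0.03, -1.08 ± 0.05 and -1.46 ± 0.10 after 2, 4 and 8 h of BMH-21. After CX-5461 it was -0.28 ± 0.07, -0.82 ± 0.01 and -0.57 ± 0.09. All BMH-21 groups and the CX-5461 groups at 4 and 8 h lay outside the range of the controls. That separation does not depend on the library factor, but it shares the uncertainty of Polr1a from the overlap with Gm26628. Ubtf minus Polr1a went from 0.67 in every control to -1.55 ± 0.18 (BMH-21) and 0.23 ± 0.09 (CX-5461) at 8 h. Ubtf minus Ttf1 went from 1.45 ± 0.14 to -0.78 ± 0.25 and 0.92 ± 0.03. Polr1d minus Polr1c, the shared pair, went from 0.15 ± 0.05 to 0.53 ± 0.04 and 0.25 ± 0.08, and for CX-5461 its range (0.17 to 0.32) overlapped that of the controls (0.10 to 0.19). No test was run on these differences, whose 3 libraries a group could give an exact p no lower than 0.10.

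The inhibitors were then compared at equal dose and time, without the control libraries. At 2 h, 0 members were higher and 1 was lower with BMH-21 than with CX-5461, beside 7.83% and 7.58% of all genes (2 and 2 members at an unadjusted p below 0.05, limma). The lower one was Ubtf (-0.20, SE 0.05, adjusted p 0.0085), which did not pass on the deposited scale (-0.12, adjusted p 0.59). At 4 h, 4 were higher and 1 was lower, beside 27.4% and 18.5%. At 8 h, 3 were higher and 5 were lower, beside 31.1% and 40.6%. These pairs of counts were, as deposited, 0 and 0, 1 and 1, and 0 and 7, with median-ratio factors 0 and 2, 2 and 3, and 4 and 5, and with quantile normalization 0 and 2, 2 and 3, and 3 and 5. Over the 14666 genes tested they were 362 and 223, 1372 and 1245, and 1754 and 9861 as deposited. With median-ratio factors 848 and 1349, 2639 and 3502, and 5248 and 5150 genes were called, and with quantile normalization 798 and 1112, 2892 and 3099, and 4530 and 6220.

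Ubtf was lower with BMH-21 by 0.46 at 4 h (adjusted p 1.5e-07) and by 1.28 at 8 h (SE 0.05, adjusted p 3.0e-16), with no overlap of libraries at either time. At 8 h Polr1c (-0.55), Polr1b (-0.39), Polr1d (-0.27) and Taf1c (-0.21) were also lower with BMH-21, and all 5 passed under each of the 4 scalings. Polr1e was higher by 0.41 at 4 h (SE 0.04, adjusted p 3.3e-08), under all 4 scalings. At 8 h Polr1a (0.50, adjusted p 4.4e-09), Polr1e (0.46) and Ttf1 (0.42) were higher with BMH-21 after centring, but on the deposited scale they were at 0.08, 0.03 and -0.01 and did not pass, since centring took a shift of -0.43 off this comparison. At 4 h Polr1a (0.19), Ttf1 (0.19) and Taf1b (0.16) were higher too. These 3 did not pass on the deposited scale, Polr1a did not after quantile normalization, Taf1b not with median-ratio factors and Ttf1 under neither of these. Ttf1 passed in 2 of the 6 fits that left out a library, and Taf1b did not pass without BMH-21 4 h replicate 3. For Rrn3 at 8 h the difference was 0.00 with a 95% interval of -0.08 to 0.07, and for Taf1b it was 0.06 (-0.04 to 0.16). Both passed as lower with BMH-21 on the deposited scale (-0.43, adjusted p 1.4e-04, and -0.37, adjusted p 0.0021), and Taf1b as higher with median-ratio factors (0.12, adjusted p 0.026).

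**Figure D4:**
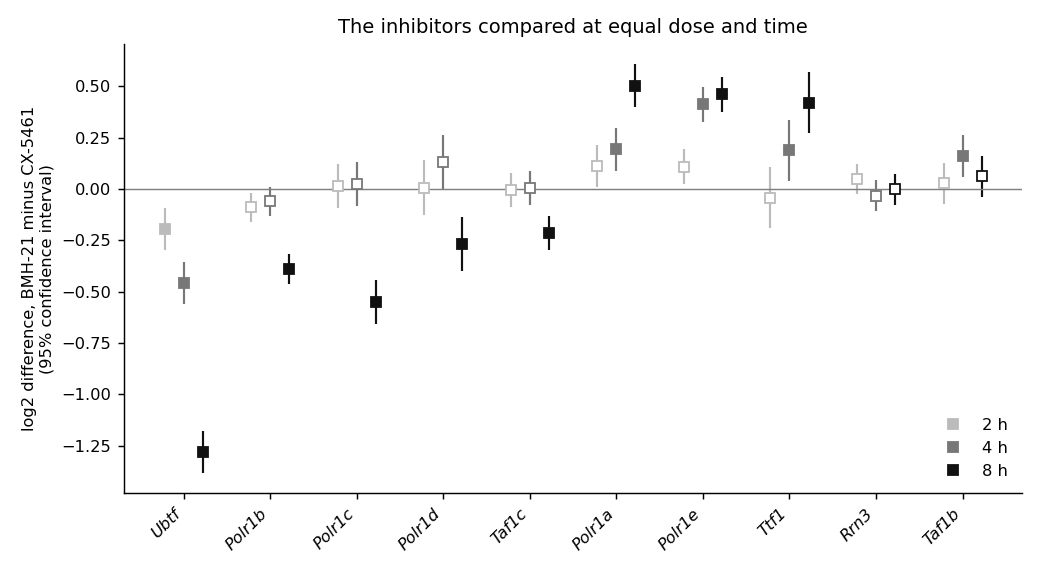
Log2 difference between BMH-21 and CX-5461 at the same dose and time (y axis, BMH-21 minus CX-5461) for each member; bars are 95% confidence intervals and filled squares passed the test. At 8 h, 5 members lie below 0 and 3 above it, with Ubtf lowest at -1.28.

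From 4 h to 8 h of BMH-21, 0 members rose and 7 fell, beside 28.3% and 42.2% of all genes. The counts as deposited were 0 and 6, with median-ratio factors 1 and 6, and with quantile normalization 2 and 5. Over the 14666 genes tested they were 2726 and 5541, 5577 and 4577, and 4468 and 5540, in that order. Ubtf fell by 0.82 more (SE 0.05, adjusted p 1.2e-12), Polr1c by 0.47, Polr1d by 0.45, Taf1c by 0.39 and Polr1b by 0.39, each under all 4 scalings. From 4 h to 8 h of CX-5461, 0 rose and 5 fell, beside 25.8% and 32%. The deposited scale turned that comparison round, to 5 rises and 0 falls, while median-ratio factors gave 1 and 5 and quantile normalization 2 and 4. Over the 14666 genes tested, the counts for CX-5461 were 8626 and 712 as deposited, 3911 and 4504 with median-ratio factors, and 4108 and 4073 with quantile normalization. Ubtf differed by 0.01 (95% interval -0.10 to 0.11) between these CX-5461 times after centring, and passed as a rise of 0.38 (adjusted p 8.3e-04) as deposited and of 0.18 (adjusted p 0.0037) after quantile normalization.

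Genes of the same pathway outside the 10 are given by lists. The other subunits found only in RNA polymerase I (Twistnb, Cd3eap and Znrd1, the older symbols of Polr1f, Polr1g and Polr1h) fell in 3 of 3 at 4 and 8 h of both inhibitors, and at 8 h did so under all 4 scalings. Their medians at 8 h were -1.05 with BMH-21 and -0.60 with CX-5461, beside -0.19 and -0.11 over all genes, and Znrd1, a small subunit tied to RNA cleavage, fell most (-1.24, adjusted p 3.1e-14, 8 h of BMH-21). Cd3eap, the partner of Polr1e, fell by 1.02 after 8 h of BMH-21 (adjusted p 8.2e-15) where Polr1e rose. The 5 subunits shared by all 3 nuclear polymerases fell in 5 of 5 at 8 h of both inhibitors (medians -0.54 and -0.36), beside the 51.3% and 44.7% of all genes that fell. For CX-5461 this was 2 of 5 as deposited (beside 2091 of the 14666 genes tested) and 3 of 5 after quantile normalization. For BMH-21 it was 4 of 5 with median-ratio factors and with quantile normalization. Polr2e fell most among them (-1.14, adjusted p 6.6e-17, 8 h of BMH-21).

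The other SL1 genes Taf1a, Taf1d and Tbp fell in 3 of 3 at 8 h (medians -0.47 with BMH-21 and -0.50 with CX-5461). Of all genes, 51.3% and 44.7% fell in these comparisons. As deposited, 2 of 3 fell with CX-5461, beside 2091 of the 14666 genes tested. Taf1d gave both extremes of its list, a rise of 0.13 after 2 h of BMH-21 (adjusted p 0.020; 0.06, adjusted p 0.78, as deposited) and a fall of 0.78 after 8 h. Of 5 regulators of ribosomal DNA transcription and chromatin, 1 rose and 4 fell at 8 h of both inhibitors (medians -0.87 and -0.36, the latter 0.10 after quantile normalization). For CX-5461 the split was 1 and 2 as deposited, and after quantile normalization it was 2 and 2, against 2 and 3 with BMH-21. Tcof1 (treacle), which holds Ubtf and the polymerase at ribosomal DNA, fell by 1.38 after 8 h of BMH-21 (adjusted p 2.4e-19). Ptrf (Cavin1), a caveolar coat protein also described as a release factor for transcripts of the enzyme, rose by 1.21 (adjusted p 5.0e-14) after 8 h of CX-5461. Ptrf was at 6.52 with BMH-21 and 6.53 with CX-5461 at 8 h, from 5.31 in the controls, and both rises passed under all 4 scalings.

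**Figure D5:**
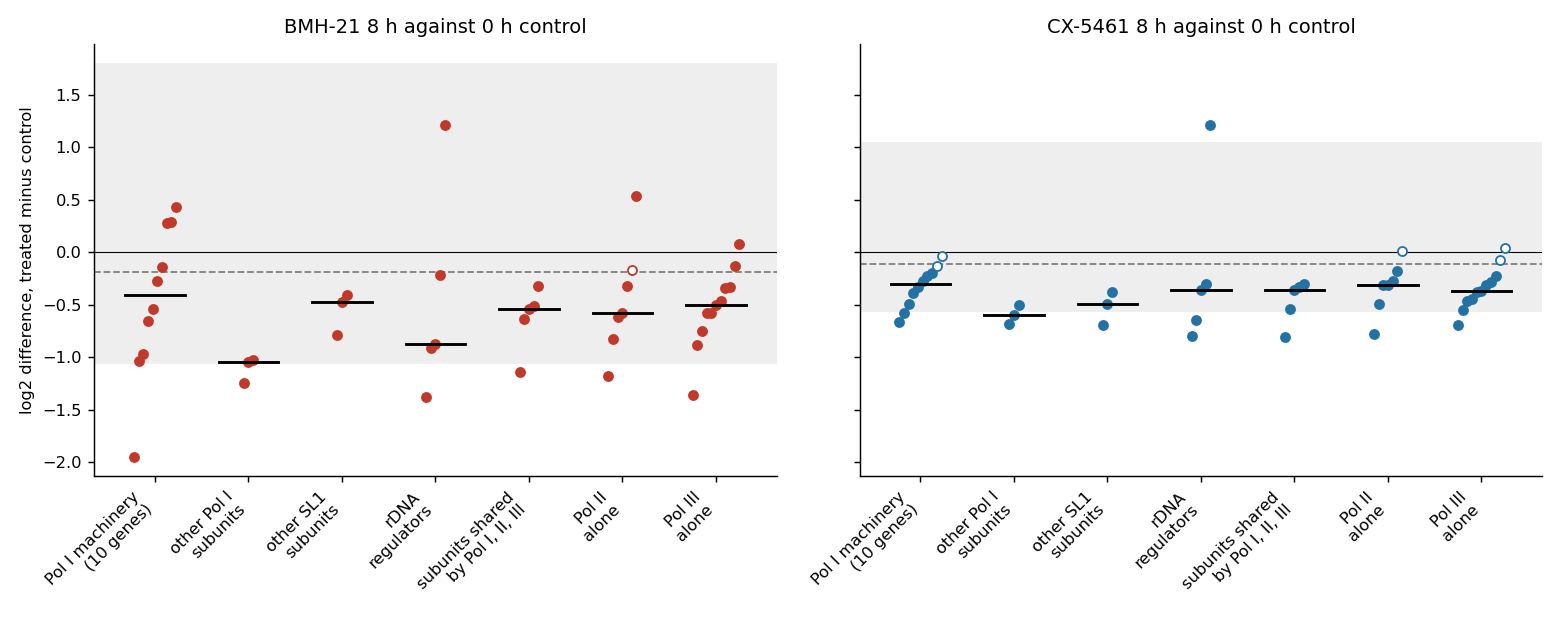
Log2 difference from control at 8 h (y axis) for the members and 6 gene lists, with BMH-21 (left) and CX-5461 (right); points are genes (filled where the test was passed), bars are list medians, and the grey band holds the middle 80% of all genes tested with their median dashed. Ubtf, Znrd1 and Tcof1 lie below the band after BMH-21, as do Polr2e of the shared subunits, Polr2i and Polr3g, and Ptrf lies far above the rest of its list in both panels.

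Over the 21 centred libraries, whose points share treatment and control, Ubtf moved most like Polr1b (r = 0.96), Polr1c (r = 0.95) and Taf1c (r = 0.89) among the members, and Polr1e most like Polr1a (r = 0.81). Among 11175 genes with a mean log2 value of at least 2, the patterns nearest to that of Ubtf were those of E130012A19Rik (r = 0.995), Zdhhc18 (r = 0.992) and Rcor2 (r = 0.99). Those nearest to Polr1e were H3f3b (r = 0.981), Smim7 (r = 0.97) and Gtf2e1 (r = 0.967). For instance, H3f3b went from 10.05 in the controls to 11.01 at 4 h of BMH-21 but 9.89 at 8 h of CX-5461. These values describe likeness over shared groups and carry no test.

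Rn45s, the row named for the 45S precursor that the enzyme makes, was read from poly(A) libraries and stands for a repeated locus. Its counts are therefore uncertain, also as a measure of that precursor. The controls were at 12.07, 12.45 and 11.38, BMH-21 libraries at 11.48, 11.78 and 11.39 and CX-5461 libraries at 12.28, 12.98 and 11.20 at 8 h. The treated libraries overlapped the controls with both inhibitors. No comparison with control passed after centring, the 8 h differences being -0.42 (95% interval -1.13 to 0.30, adjusted p 0.26) and 0.19 (-0.53 to 0.90, adjusted p 0.64). On the deposited scale they did pass, at -0.63 (adjusted p 7.3e-04) and 0.40 (adjusted p 0.048), with a variance prior that gives a gene's own spread little weight. Rn45s was lower at 8 h than at 4 h of BMH-21 (-0.80, adjusted p 0.043) with overlapping libraries. This difference was -0.86 (adjusted p 1.3e-05) as deposited, -0.67 (adjusted p 0.088) with median-ratio factors and -0.11 (adjusted p 0.76) after quantile normalization. As deposited, BMH-21 against CX-5461 also passed in limma at 2 h (0.63, adjusted p 0.019) and 8 h (-1.03, adjusted p 1.1e-07). After centring neither passed (adjusted p 0.32 and 0.12). The 8 h BMH-21 difference from control was 0.31 (adjusted p 0.33) after quantile normalization, with the sign turned.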

How the data were processed

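Whole-transcriptome poly(A) libraries were made with a directional kit, per the labels' protocols. The deposited table holds log2 values in the form written by voom. The submitters' processing notes name Trim Galore 0.5.0, TopHat2 2.1.1, limma 3.46.0, edgeR 3.32.1, DESeq2 1.30.1, R 4.0.5 and mm10. The counting program and annotation are not given in the sources used here. Whole reads were recovered from the log2 values to within 1.7e-08.

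Genes with a log2 value above 0 in at least 3 libraries were kept (14666 of 20900). The factors behind the deposited values spanned 0.832 to 1.375, their origin is not given in the sources used here, and they gave a variance prior of 111.5 degrees of freedom, against 8.5 after centring and 14 from replicates, so libraries were centred on their medians. The deposited scale is an alternative. A limma 3.58.1 model (R 4.3.3) with 1 mean per group over 21 libraries, eBayes with trend, two-sided, and Benjamini-Hochberg adjustment over all genes gave 11 comparisons. The fit was checked with a self-test on drawn reads, where 200 of 14666 genes were changed, equally up and down, in the BMH-21 8 h group. It recovered 174 of the 200, and 4.92% of its calls were false. With so few and balanced changes it cannot check the choice of scaling. Replicates differed beyond sampling noise. The members, lists, comparisons and this scaling were chosen with earlier results of these data known. Named genes were the 10 members, the largest rise and fall of each list among calls in the 6 comparisons with control, Rn45s, and the 3 genes most like Polr1e and Ubtf. Cd3eap, Polr1b beside Polr2b, and Ptrf at 8 h of BMH-21 were chosen after their values were seen. Alternatives were 3 other scalings, 2 other filters, an offset of 5 reads, no trend, voom weights, only the groups compared, a replicate block, and leaving out each library. Gene positions and exon lengths are from GENCODE M21 (GRCm38), promoter windows from RefSeq. Protein sequences were not used here. Figures were drawn with matplotlib 3.10.9.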

Additional observations from a re-analysis of the deposited data

Results flagged for a closer look

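The change from 4 h to 8 h of treatment passed for 7 members with BMH-21: Ubtf (-0.82), Polr1c (-0.47), Polr1d (-0.45), Taf1c (-0.39), Polr1b (-0.39), Rrn3 (-0.24) and Polr1e (-0.15). These stand here because the effect against the same controls differed between the times, by a test of the difference itself. With BMH-21, the fall of Polr1e did not pass under the 3 other scalings, and that of Rrn3 was 0.07 (adjusted p 0.084) after quantile normalization. Over all genes tested, 28.3% rose and 42.2% fell in this comparison.

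With CX-5461 the change between these times passed for 5 members: Polr1a (-0.32), Rrn3 (-0.27), Ttf1 (-0.22), Polr1e (-0.20) and Taf1c (-0.17). On the deposited scale all 5 were above 0 and did not pass, at 0.06, 0.10, 0.15, 0.17 and 0.21. Over all genes tested, 25.8% rose and 32% fell in this comparison after centring. Ttf1 did not pass after quantile normalization (-0.11, adjusted p 0.2), nor without CX-5461 4 h replicate 1.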

How the results depend on the processing

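The direction of members near 0 rests on how libraries are scaled, and a scaling cannot be chosen from these data, since no spiked-in RNA is described. Depth limited few values, with 1463 or more reads per member and library. Of 110 member differences, 110 kept direction and side of the threshold with an offset of 5 reads and with voom weights, 108 without a trend, 104 with only the groups compared, 103 with the stricter filter, 95 with no filter, 90 with median-ratio factors, 85 with quantile normalization and 76 as deposited. Leaving out 1 library kept 645 of 660 and reversed 0. Sign changes of values that passed under neither setting were not counted. The cause of the changes below was not tested.

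The count of members called went from 4 to 2 at 2 h of BMH-21 and from 8 to 3 at 8 h of CX-5461 on the deposited scale. For CX-5461 at 2 h (3 members), quantile normalization gave 1. For BMH-21 against CX-5461 at 2 h (1 member) the deposited scale gave 0 (limma; also 0 at an unadjusted p below 0.05) and median-ratio factors, quantile normalization and the stricter filter 2 each, and at 4 h (5 members) the deposited scale gave 2. Leaving out 1 library gave 1 to 3 members for CX-5461 at 2 h (1 without control replicate 2), 3 to 5 for BMH-21 against CX-5461 at 4 h (3 without BMH-21 4 h replicate 3) and 4 to 5 for CX-5461 at 8 h against 4 h.

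Reversed with no filter, where centring uses all genes: Polr1a (-0.033) and Ttf1 (-0.021) at 8 h of BMH-21, and Polr1a (-0.13) and Polr1e (-0.052) at 4 h of CX-5461. Reversed with median-ratio factors: Taf1b at 8 h of BMH-21 (0.038), Rrn3 at 4 h of CX-5461 (0.10) and Polr1a at 8 h against 4 h of BMH-21 (0.12). Reversed with quantile normalization: Rrn3 at 8 h of BMH-21 (0.14), at 4 and 8 h of CX-5461 (0.21 and 0.083) and at 8 h against 4 h of BMH-21 (0.074), Polr1a at 8 h of CX-5461 (0.10) and at 8 h against 4 h of BMH-21 (0.37), and Polr1e at 8 h of CX-5461 (0.12). Reversed as deposited: Taf1b at 8 h of CX-5461 (0.016) and, BMH-21 against CX-5461 at 8 h, Taf1b (-0.37) and Ttf1 (-0.006). Also reversed as deposited, at 8 h against 4 h of CX-5461: Polr1a (0.059), Polr1b (0.32), Polr1d (0.32), Polr1e (0.17), Rrn3 (0.10), Taf1c (0.21) and Ttf1 (0.15).

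Libraries with the same replicate number did not deviate together (r from -0.25 to 0.11 over 63 pairs, 1 above 0.1; 4 of 21 libraries correlated best with their own number). The replicate block moved 1 of 110 calls, Polr1c at 2 h of CX-5461 (adjusted p 0.052), and with it that count from 3 to 2.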

Other observations

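The subunits of the other nuclear polymerases were set beside those of RNA polymerase I. Of 7 subunits found only in RNA polymerase II, which makes mRNA, 1 rose and 5 fell after 8 h of BMH-21 (median log2 difference -0.58), and 0 rose and 6 fell after 8 h of CX-5461 (median -0.31). Polr2b, its second largest subunit, rose by 0.56 after 4 h of BMH-21 (adjusted p 6.6e-13, limma), and Polr2i fell by 1.18 after 8 h (adjusted p 2.2e-14). Polr2b was thus higher where Polr1b, the matching subunit of RNA polymerase I, was lower (-0.58 at 4 h of BMH-21), and both passed under all 4 scalings.

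Of 11 subunits found only in RNA polymerase III, which makes transfer RNA and 5S ribosomal RNA, 1 rose and 10 fell after 8 h of BMH-21 (median -0.50), and 0 rose and 9 fell after 8 h of CX-5461 (median -0.37). Polr3g, the subunit form abundant in pluripotent cells, fell by 1.36 after 8 h of BMH-21 (adjusted p 5.8e-19), and Polr3f rose by 0.36 after 2 h (adjusted p 2.8e-07; 0.29, adjusted p 0.055, as deposited). On the deposited scale the CX-5461 falls at 8 h numbered 2 of 7 and 3 of 11, beside 2091 of the 14666 genes tested. After centring, the falls of these lists and of the RNA polymerase I genes stand beside 51.3% and 44.7% of all genes that fell in the same comparisons.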
